A study of Mus musculus with 2 samples.

Results

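MHC class I molecules display peptides from inside the cell to CD8 T cells. A polymorphic heavy chain, encoded in these mice by H2-K1 and H2-D1, pairs with the light chain encoded by B2m. Peptides are cut by the proteasome, whose catalytic subunits can be exchanged for the immunoproteasome subunits encoded by Psmb8 and Psmb9. They are pumped into the endoplasmic reticulum by the transporter TAP (Tap1 and Tap2) and loaded onto the heavy chain with the help of tapasin (Tapbp). Nlrc5 encodes a transactivator of class I promoters, and H2-T23 encodes Qa-1, a non-classical chain read by the inhibitory receptor CD94/NKG2A on NK and T cells. Interferon gamma is known to induce much of this pathway, and tumors are known to lose parts of it.

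The 10 genes named above, of 32285 genes counted, were followed in RM-1 tumors by scRNA-seq. They were listed by name, with earlier results of these data known. RM-1 is a mouse prostate cancer (PCa) cell line, which the study's orthotopic models carry in the prostate of C57BL/6 mice. The study also names subcutaneous RM-1 tumors. The control library came from a tumor of a vehicle-treated mouse, and the ENZ library from a tumor of a mouse given enzalutamide (ENZ), an androgen receptor inhibitor. Both tumors were labelled WT. Age, dose and duration for these 2 tumors were not given in the sources used here. Immune cells were enriched with a cell isolation kit and stained for CD45 before sequencing, so the numbers of cells of each class are not their shares in the tumor. With 1 library per condition, mouse, tumor, preparation and treatment cannot be told apart, and no test between conditions was possible.

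Values are unique molecular identifiers (UMIs) of a gene per 1000000 UMIs (CPM), summed over the cells of a class, with exact 95% intervals that cover counting error only. By the labels UMIs mark molecules captured at the 3′ end, so each gene is compared across classes and libraries and not with other genes. Barcodes with at least 1000 UMIs and at most 20% mitochondrial UMIs were kept, which left 12253 control and 10271 ENZ barcodes, with medians of 6376 and 8127 UMIs. Of these, 39 barcode sequences were in both libraries. Cancer cells, defined by at least 5 UMIs of Cacna2d1, Rbfox2, Kif21a and Rhox5 together and at most 1 Ptprc (CD45) UMI, numbered 4006 and 4469 (medians 21024 and 22115 UMIs). Immune cells, with at least 2 Ptprc UMIs and at most 1 UMI of the cancer markers, numbered 4055 and 3012 (medians 4418 and 4606 UMIs). Another 443 and 210 barcodes held both the cancer markers and at least 2 Ptprc UMIs, as doublets would, and were left out.

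The label of the cancer cells was checked against genes the rule did not use. The epithelial keratins Krt8 (434.1 and 506.2 CPM in the control and ENZ libraries) and Krt18 (354.4 and 356.8 CPM) were at 16.3 and 26.5 CPM and at 9.38 and 13.45 CPM in immune cells. The epithelial adhesion gene Epcam was near absent from cancer cells, at 3.07 and 2.89 CPM. Of 3 immune genes checked, Tyrobp was at 22.4 and 9.77 CPM, which is 1.70% and 1.03% of its level in immune cells. Laptm5 was at 1.91% and 1.26% and Coro1a at 1.74% and 1.20% of theirs. The class II genes H2-Aa, H2-Ab1, H2-Eb1 and Cd74, which professional antigen-presenting cells express, summed to 1.86% and 1.36%. Since no immune type lacks class I, these percentages are given as the background that genes of immune cells have in cancer-cell barcodes.

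From all kept barcodes with at most 1 UMI of the cancer markers, 9 immune types were gated by markers of their own. No minimum of Ptprc was set for them, so of the 4428 (control) and 3261 (ENZ) typed barcodes, 1497 and 978 lay outside the immune cells as defined above. T cells numbered 550 (control) and 699 (ENZ), NK cells 305 and 157, and B cells 46 and 28. Neutrophils numbered 1089 and 390, monocytes 884 and 1140, and macrophages 1285 and 730. Conventional dendritic cells of type 1, which cross-present antigen to CD8 T cells, numbered 137 and 54, those of type 2 61 and 18, and mature Ccr7-positive dendritic cells 71 and 45. The remaining 3819 and 2541 kept barcodes were neither cancer cells nor of a type, and 1124 and 729 of them counted among the immune cells.

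Summed over the 10 genes, cancer cells carried class I transcripts at a level close to that of immune cells. B2m, H2-K1 and H2-D1 made up most of this sum (2057.0, 1048.9 and 1122.9 CPM in control cancer cells), here and in later sums. The less abundant members hardly move it, so each gene is also read alone below. The 10 genes summed to 4778.1 CPM (4764.6 to 4791.5) in control cancer cells and 4756.6 CPM (4744.0 to 4769.3) in ENZ cancer cells, against 5066.0 and 4867.6 CPM in immune cells. The ratio of cancer to immune cells was 0.943 (0.937 to 0.949) for control and 0.977 (0.970 to 0.9845) for ENZ. Its side of 1 depended on the processing: as a log2 ratio it ran from -0.284 to 0.022 in the control library and from -0.208 to 0.054 in the ENZ library over the alternatives tried. Mature dendritic cells, the class that primes T cells in lymph nodes, had the most in both libraries, at 7397.2 and 7270.9 CPM. Type 2 dendritic cells (4267.0 CPM) in the control and B cells (3984.2 CPM) in the ENZ library had the lowest values, with intervals that overlapped those of the next class. Per cell, cancer cells, which were deeper in UMIs, held 121 and 122.1 UMIs of the 10 genes, and immune cells 29.2 and 26.4. Empty droplets, barcodes of 10 to 100 UMIs that hold free RNA, stood at 5041.9 and 5477.5 CPM, so free RNA carried these genes at about the level of the cells.

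**Figure D1:**
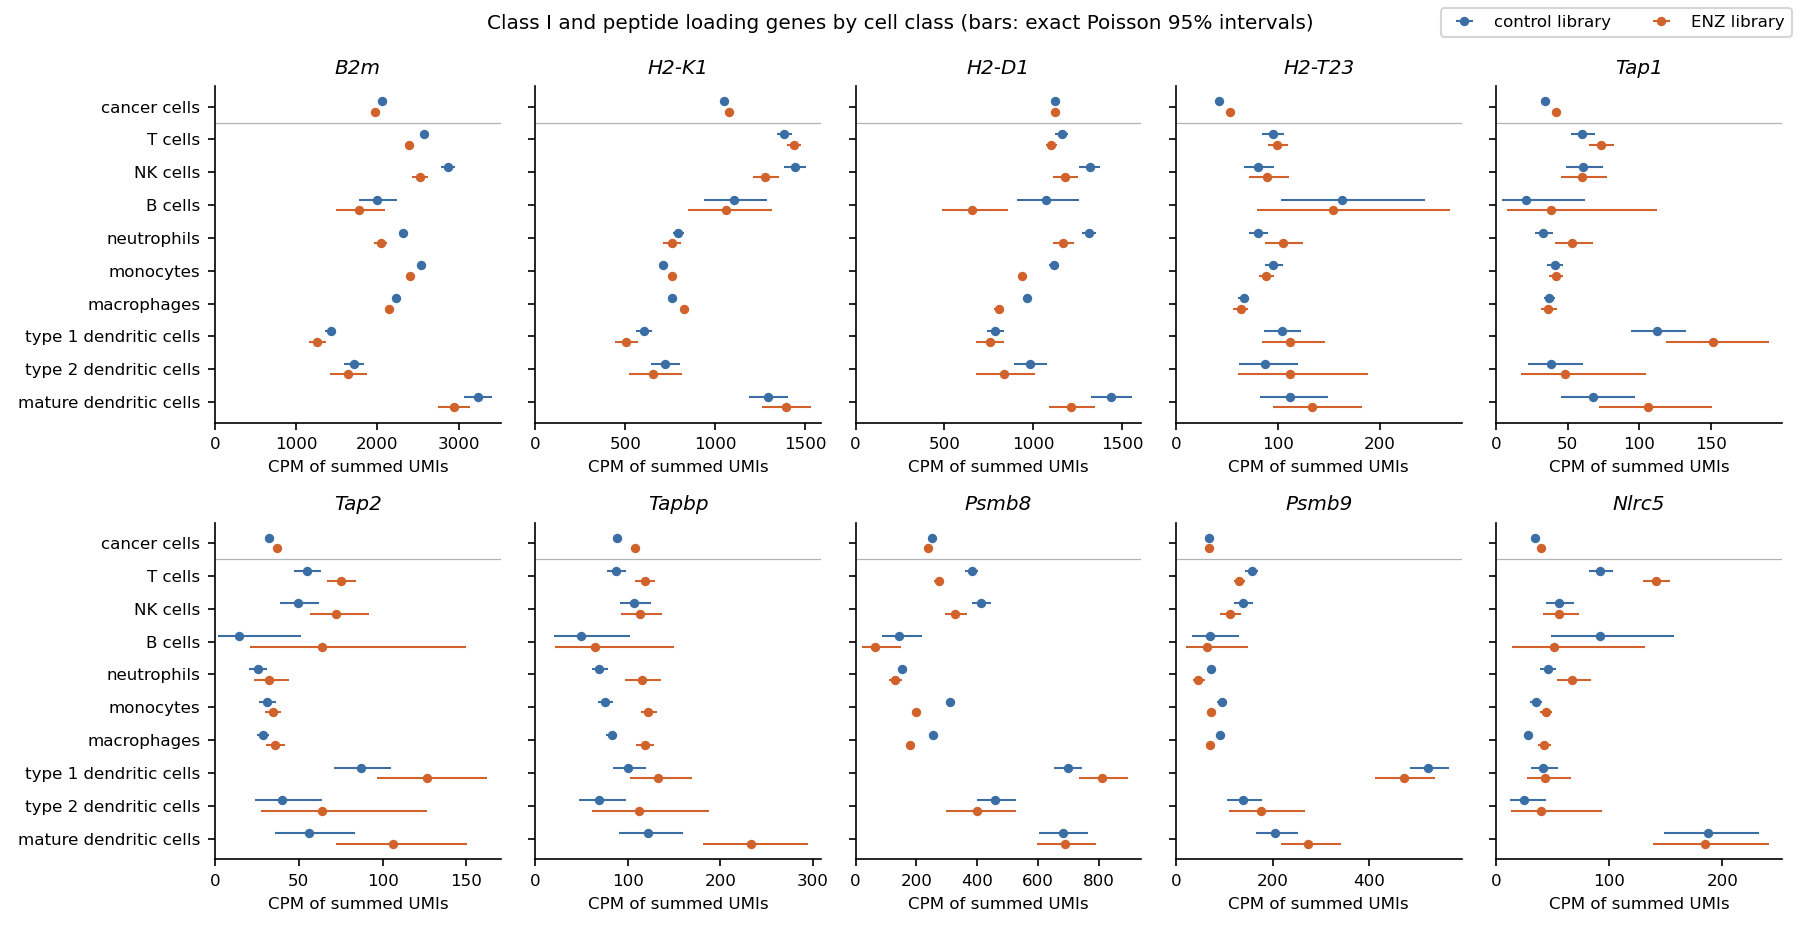
Each panel plots 1 gene, with the level in CPM of summed UMIs on the horizontal axis and 10 cell classes on the vertical axis; blue points are the control library, orange points the ENZ library, and bars exact Poisson 95% intervals. Cancer cells have the lowest H2-T23 level of the 10 classes in both libraries (42.5 and 52.8 CPM), and type 1 dendritic cells stand apart for Psmb9 (522.4 and 470.9 CPM).

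Among the chains of the molecule itself, B2m, the light chain, was at 2057.0 CPM in control and 1974.3 CPM in ENZ cancer cells, and at 2315.3 and 2210.9 CPM in immune cells. The highest B2m levels were those of mature dendritic cells (3234.7 and 2940.5 CPM) and NK cells (2870.7 and 2523.1 CPM), and the lowest those of type 1 dendritic cells (1424.7 and 1261.2 CPM). Cancer cells ranked below the other immune types except B cells and both conventional dendritic types, and did not differ beyond counting error from B cells in either library, nor from neutrophils in the ENZ library. H2-K1, a classical heavy chain, was at 1048.9 and 1076.4 CPM in cancer cells and at 911.2 and 976.2 CPM in immune cells. T cells (1385.6 and 1440.3 CPM), NK cells (1443.6 and 1279.9 CPM) and mature dendritic cells (1294.8 and 1393.2 CPM) held more, and all myeloid types and type 1 and type 2 dendritic cells held less, down to 604.4 and 506.2 CPM in type 1 dendritic cells. H2-D1, the other classical heavy chain, was at 1122.9 and 1120.3 CPM in cancer cells and at 1080.2 and 952.7 CPM in immune cells. Cancer cells were above monocytes (935.7 CPM) and macrophages (806.8 CPM) in the ENZ library. In the control library they did not differ beyond counting error from monocytes (ratio 1.006) and were below T cells (0.967, 0.937 to 0.999), NK cells, neutrophils and mature dendritic cells. In the ENZ library cancer cells did not differ beyond counting error from T cells (1.016), NK cells (0.949), neutrophils (0.958) and mature dendritic cells (0.9245).

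H2-T23, the Qa-1 chain, was the only member for which cancer cells ranked last of the 10 classes in both libraries. It was at 42.5 CPM in control and 52.8 CPM in ENZ cancer cells, against 82.6 and 87.8 CPM in immune cells. Each of the 9 immune types was higher in both libraries, from macrophages (66.3 and 63.3 CPM) to B cells (162.6 and 153.7 CPM). Cancer cells were at 0.514 (0.487 to 0.543) and 0.601 (0.567 to 0.637) times the immune level. Of its 3′ sequence windows of 90 bases, 13.4% also occur in other genes, among them the pseudogene H2-T-ps, so, if capture was at the 3′ end as labelled, some reads of H2-T23 could not be assigned to it alone. Its receptor genes were highest in NK cells: Klrc1 (NKG2A) was at 98.9 and 99.75 CPM in NK cells and 40.2 and 31.1 CPM in T cells, and Klrd1 (CD94) at 408.2 and 307.6 CPM in NK cells. Klrd1 was also found in type 2 dendritic cells, at 313.1 and 128.1 CPM (140 and 16 UMIs), and in T cells, at 109.2 and 50.1 CPM.

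For peptide transport, Tap1 was at 34.3 and 41.8 CPM and Tap2 at 32.2 and 36.8 CPM in cancer cells. Immune cells held 48.4 and 54.1 CPM of Tap1 and 38.1 and 52.5 CPM of Tap2. Both transporter genes were most abundant in type 1 dendritic cells (Tap1 112.3 and 151.4 CPM, Tap2 86.8 and 126.5 CPM), the class with the lowest H2-K1 and B2m values. Mature dendritic cells came next, within counting error except for Tap1 in the control library. Cancer-cell Tap1 did not differ beyond counting error from the neighbouring levels of macrophages and neutrophils in the control library. Tapbp, which bridges TAP and the empty class I molecule, was at 88.7 and 108.1 CPM in cancer cells and 85.6 and 117.1 CPM in immune cells. Its highest level was in mature dendritic cells (121.5 and 232.8 CPM), which differed beyond counting error from the next class in the ENZ library only.

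The immunoproteasome subunits differed widely among the classes. Psmb8 was at 249.7 CPM in control and 237.4 CPM in ENZ cancer cells, and at 325.7 and 242.7 CPM in immune cells. It reached 697.6 and 811.1 CPM in type 1 and 680.1 and 688.1 CPM in mature dendritic cells, 2 classes that did not differ beyond counting error. Psmb9 was at 67.7 and 69.2 CPM in cancer cells and at 132.1 and 101.2 CPM in immune cells. Type 1 dendritic cells held 522.4 and 470.9 CPM of Psmb9, so cancer cells stood at 0.130 and 0.147 times their level. Psmb9 in cancer cells did not differ beyond counting error from B cells in either library, nor from neutrophils in the control library (ratio 0.929). The same held for monocytes (0.955) and macrophages (0.976) in the ENZ library, where cancer cells were above neutrophils (1.485, 1.14 to 1.97). Against every other immune type they were lower.

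Nlrc5, the class I transactivator, was at 34.2 and 39.5 CPM in cancer cells and at 46.75 and 72.4 CPM in immune cells. It was highest in mature dendritic cells (187.0 and 184.9 CPM), followed by T cells (92.1 and 141.5 CPM). These classes did not differ beyond counting error in the ENZ library, nor did T cells and B cells (91.9 CPM) in the control library. Cancer cells were next to monocytes and macrophages in the control library (34.9 and 28.5 CPM in those types) and last of the 10 classes in the ENZ library, where their level did not differ beyond counting error from that of type 2 dendritic cells (40.0 CPM).

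The members' place was read against all genes. The median log2 ratio of cancer to immune cells over the 11690 genes with at least 5 CPM on either side was 0.41 in the control library, and 0.35 over 11632 genes in the ENZ library, so that the typical gene was higher in cancer cells. The members' medians were -0.31 and -0.27, and each of the 10 lay below the median of all genes in both libraries. At least 1.5-fold higher in cancer cells were 0 of 10 members, beside 44.7% (control) and 42% (ENZ) of all genes. At least 1.5-fold lower were 2 of 10 in each library, where 26.6% and 26.8% of all genes were: H2-T23 and Psmb9 in the control, and H2-T23 and Nlrc5 in the ENZ library. The share of members lower by that fold was thus near that of all genes. H2-T23 in the control library and Nlrc5 in the ENZ library kept this fold under all 14 alternatives. Psmb9 in the control library did not (log2 ratio -0.485 at 1000 UMIs a cell and -0.530 as the mean over cells), nor did H2-T23 in the ENZ library (-0.516 and -0.562, and -0.484 in cancer cells with under 2 UMIs of 8 immune genes). H2-K1 (1.15, 1.13 to 1.17, and 1.10, 1.085 to 1.12) and H2-D1 (1.04, 1.025 to 1.05, and 1.18, 1.16 to 1.20) were the members with ratios above 1 in both libraries before that shift was taken into account. Under median-of-ratios scaling the ratio of H2-K1 in the ENZ library and that of H2-D1 in the control library lay below 1. That of H2-D1 in the control library also lay below 1 with immune types weighted equally.

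Among other class I chains, some were at the immune level and some were nearly absent from cancer cells. Of 15 chains listed, 14 were in the files and 8 reached 5 CPM in cancer or immune cells. At least 1.5-fold lower in cancer cells were 4 of these 8 in both libraries, H2-Q6, H2-Q7, H2-Q10 and Cd1d1, beside 26.6% and 26.8% of all genes. At least 1.5-fold higher were 0 of them in the control library and 1 in the ENZ library, H2-M3, beside 44.7% and 42% of all genes. H2-Q4 was at 130.1 and 125.9 CPM in cancer cells and 94.5 and 97.9 CPM in immune cells, and H2-T22 at 59.5 and 61.8 against 44.7 and 49.2 CPM. H2-M3, which presents formylated peptides, was at 37.0 and 34.6 against 29.5 and 23.1 CPM. H2-Q6 was at 4.32 and 4.40 CPM in cancer cells against 119.6 and 126.9 CPM in immune cells, and H2-Q7 (Qa-2) at 4.98 and 4.39 CPM against 212.5 and 195.9 CPM. The ratio of cancer to immune cells was 0.0234 (0.0213 to 0.0257) and 0.0224 (0.0203 to 0.0246) for H2-Q7, and 0.0361 and 0.0347 for H2-Q6. At 1000 UMIs a cell, an H2-Q7 UMI was found in 0.374% (control) and 0.425% (ENZ) of cancer cells (8.34% and 8.10% before thinning), against 42.55% and 36.05% of T cells (84.7% and 80.5% before). T and NK cells had the highest shares in the control library. Macrophages were at 8.72% and 7.81%, and the lowest immune shares were 4.92% in control type 2 dendritic cells and 2.82% in ENZ neutrophils. Cd74, a class II gene that serves as the background, was found in 6.465% and 3.04% of the thinned cancer cells. Median depth before thinning was 21024 and 22115 UMIs in cancer cells and 4456 and 4374 in T cells. Of the 3′ windows of 90 bases, 26.9% of H2-Q6, 26.4% of H2-T22, 9.49% of H2-Q4 and 4.735% of H2-Q7 are shared with other genes, so the levels of H2-Q6 and H2-T22 are the less certain. For H2-K1 this was 0.151%, and for H2-D1 and B2m 0.

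**Figure D2:**
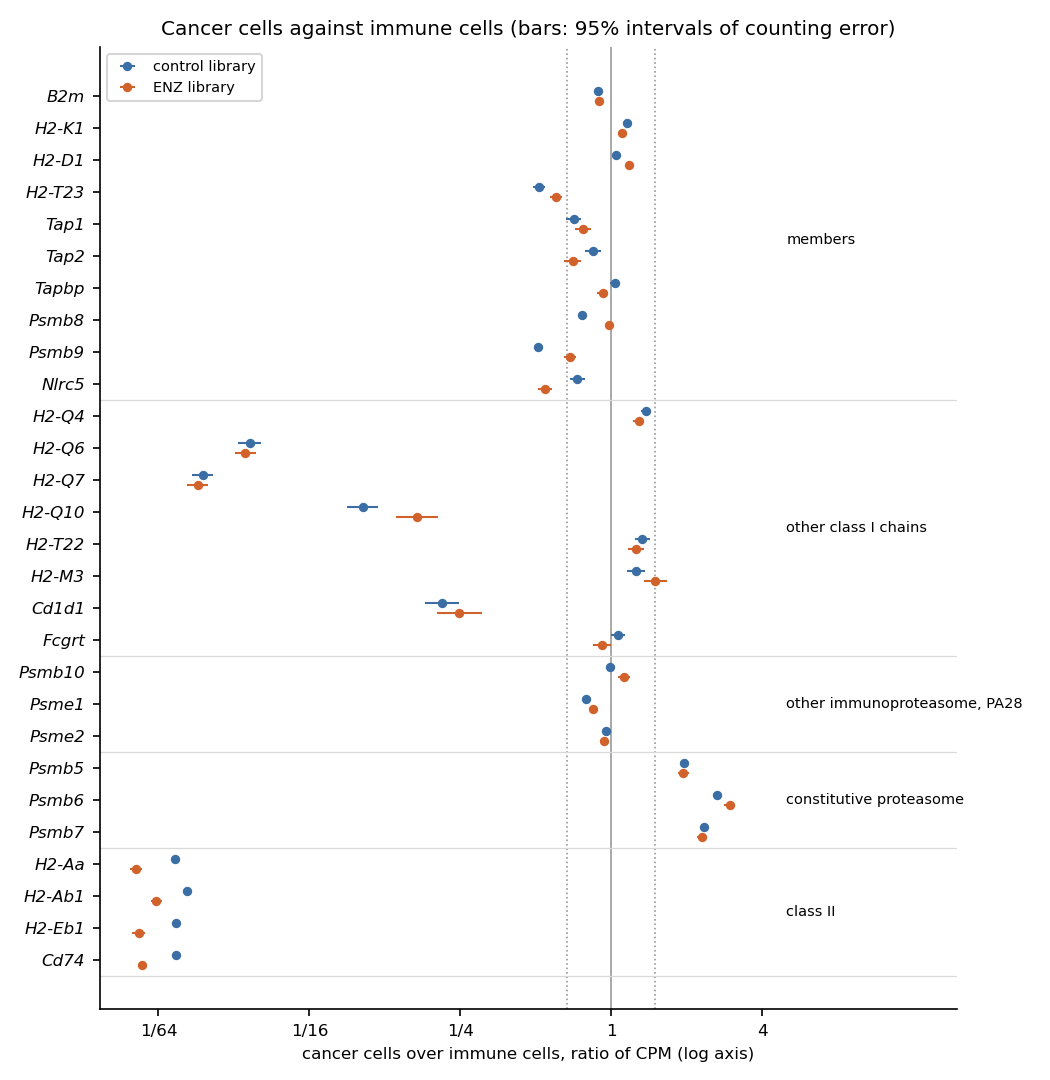
The horizontal axis, on a log scale, gives the ratio of CPM in cancer cells to CPM in immune cells for the 10 members and for the genes of 4 related lists, in the control (blue) and ENZ (orange) library, with 95% intervals of counting error; dotted lines mark 1.5-fold. H2-Q6 and H2-Q7 lie near the class II genes on the left (H2-Q7 at 0.0234 and 0.0224), while H2-K1, H2-D1, H2-Q4 and H2-T22 lie at or above 1 and the constitutive proteasome subunits are the farthest to the right.

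The upstream sequences of these chains are shown because the ratios of cancer to immune cells of H2-Q6 and H2-Q7 lay far below that of H2-K1, although all are heavy chains of the MHC region on chromosome 17. They are given 5′ to 3′ on the gene's own strand from the RefSeq promoter table of GRCm38.p6, in which 8 of the 10 members had an entry. Capitals mark matches to the letters of 4 motifs and, in B2m, to a longer form of the first, searched on both strands: GAANNGAAA (a short interferon-stimulated response element, related to a longer form with 1 more A among its first letters, which was also searched), kappaB (its letters are the first capitals of H2-K1), TGACG (the core of a CREB site) and CCAAT, which reads ATTGG on the other strand.
B2m, chr2:122147487-122147685, plus strand: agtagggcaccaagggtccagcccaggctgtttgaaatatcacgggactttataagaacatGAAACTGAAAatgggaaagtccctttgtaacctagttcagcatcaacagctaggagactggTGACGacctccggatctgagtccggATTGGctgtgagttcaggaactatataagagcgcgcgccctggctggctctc
H2-K1, chr17:34000348-34000547, minus strand: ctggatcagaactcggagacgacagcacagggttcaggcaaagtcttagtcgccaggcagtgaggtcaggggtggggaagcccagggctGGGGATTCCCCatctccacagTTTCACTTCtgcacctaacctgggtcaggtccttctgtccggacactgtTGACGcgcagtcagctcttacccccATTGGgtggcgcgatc
H2-Q6, chr17:35424650-35424849, plus strand: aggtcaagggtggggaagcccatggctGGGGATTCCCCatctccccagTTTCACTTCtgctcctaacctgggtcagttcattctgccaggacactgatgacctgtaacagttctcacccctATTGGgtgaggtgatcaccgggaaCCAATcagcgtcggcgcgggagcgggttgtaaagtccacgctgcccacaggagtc
H2-Q7, chr17:35438955-35439154, plus strand: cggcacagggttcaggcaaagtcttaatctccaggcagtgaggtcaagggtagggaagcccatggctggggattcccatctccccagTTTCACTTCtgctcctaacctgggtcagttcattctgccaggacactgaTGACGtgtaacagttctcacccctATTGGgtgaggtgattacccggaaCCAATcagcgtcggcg

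B2m holds the longer response element, all 3 heavy chains hold the short one, and H2-K1 alone of the 3 holds each of the 4 motifs. H2-Q6 holds kappaB and no match to TGACG, and H2-Q7 holds TGACG and no exact match to kappaB. H2-Q4, whose level in cancer cells was above that of immune cells, likewise holds TGACG and no exact match to kappaB. In windows from 250 bases before to 50 after the start site, the local alignment of H2-K1 was 88.3% identical to H2-D1, 83.5% to H2-Q6, 79.8% to H2-Q4 and 79.1% to H2-Q7. The exact kappaB letters are rare, found in 10 of 32851 promoters of the table (0.0304%), and H2-K1, H2-D1 and H2-Q6 are among them. The other motifs are common: the short response element is in 7.52% of promoters, the longer form in 3.44%, TGACG in 20.8% and CCAAT in 37.4%. A match describes letters only, and no binding was measured here. Tap1 and Psmb9 lie head to head on chromosome 17, with start sites at 34187556 and 34187330, so their promoter windows overlap. H2-K1 is annotated at chr17:33996017-34000347, H2-D1 at chr17:35262730-35267499, H2-T23 at chr17:36029773-36032855, Tap1 at chr17:34187553-34197225, Tap2 at chr17:34203527-34216321, Tapbp at chr17:33915899-33929292, Psmb8 at chr17:34197721-34201454 and Psmb9 at chr17:34181987-34187764 (GENCODE M21, GRCm38). Outside this locus, B2m is at chr2:122147686-122153083 and Nlrc5 at chr8:94434356-94527272.

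Cancer cells held less Psmb9 than the pooled immune cells (67.7 and 69.2 against 132.1 and 101.2 CPM), beside more constitutive proteasome. In the ENZ library this Psmb9 difference stayed under 1.5-fold. There neutrophils held less Psmb9 than cancer cells, and monocytes, macrophages and B cells did not differ from them beyond counting error. The ratio of Psmb8 lay on either side of 1 depending on the processing in both libraries. Psmb10 was close to the immune level (98.9 and 95.25 against 99.6 and 84.7 CPM). Psmb5, Psmb6 and Psmb7, the subunits that Psmb8, Psmb9 and Psmb10 replace, were 3 of 3 at least 1.5-fold higher in cancer than in immune cells in both libraries, with a median log2 ratio of 1.23 and 1.21. The direction was also that of the typical gene, since 44.7% and 42% of all genes were higher by that fold. Psmb6, for example, was at 350.9 and 285.7 CPM in cancer cells and at 132.9 and 96.2 CPM in immune cells. Within the pair, Psmb9 made up 16.2% (15.8 to 16.5, Clopper-Pearson) of Psmb9 and Psmb6 UMIs in control and 19.5% (19.1 to 19.9) in ENZ cancer cells. Capture may differ between the genes of a pair, so such shares are compared across classes and libraries and not read as proportions of subunits. In the immune types with at least 100 UMIs of the pair in both libraries the lowest share was that of macrophages, 38.9% and 38.6%, and the highest that of type 1 dendritic cells in the control (76.0%) and mature dendritic cells in the ENZ library (77.7%). Psmb8 made up 53.0% and 55.0% of Psmb8 and Psmb5 UMIs in cancer cells, against 69.9% and 66.6% in macrophages and 89.8% and 88.9% in mature dendritic cells. Psmb10, the remaining immunoproteasome subunit, had a share of 23.15% and 24.35% with Psmb7 in cancer cells, the lowest of the 10 classes in both libraries. It was 26.6% (21.9 to 31.6) and 35.85% in type 1 dendritic cells, 41.4% and 42.0% in macrophages and 57.0% and 57.3% in mature dendritic cells. By level, type 1 dendritic cells, which held the most Psmb9 of the 10 classes, had 70.9 and 78.8 CPM of Psmb10, below cancer cells in the control library and within counting error of them in the ENZ library (38 UMIs).

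**Figure D3:**
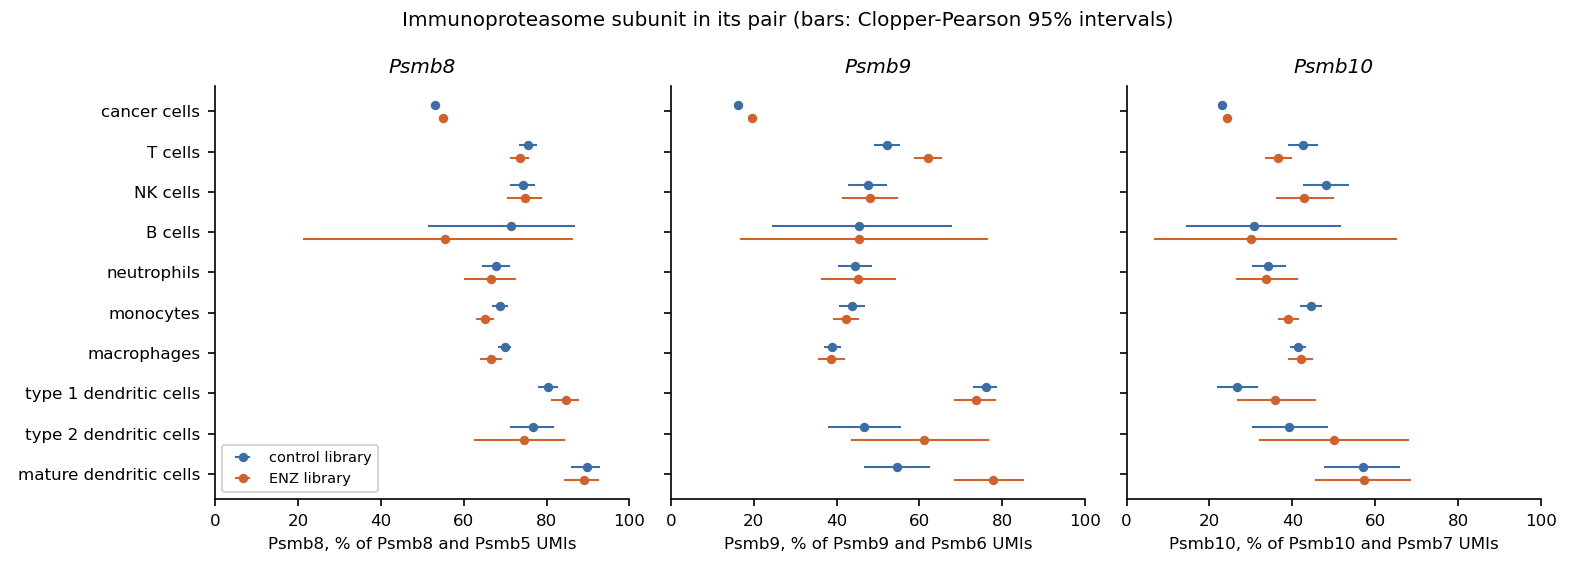
Each panel gives the percent of a pair's UMIs that come from the immunoproteasome subunit, by cell class, for Psmb8 with Psmb5, Psmb9 with Psmb6 and Psmb10 with Psmb7; blue is the control and orange the ENZ library, with Clopper-Pearson 95% intervals. Cancer cells have the lowest Psmb9 share (16.2% and 19.5%), and B cells have wide intervals because they hold few UMIs.

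The remaining loading genes were measured alongside. The chaperones Calr, Canx and Pdia3 and the tapasin relative Tapbpl had a median log2 ratio of 0.25 and 0.31 between cancer and immune cells, with Pdia3, the disulfide isomerase of the loading complex, at 499.3 and 539.0 against 284.8 and 325.3 CPM. Tapbpl was lower in cancer cells, at 9.23 and 11.2 against 14.6 and 17.8 CPM. Erap1, which trims peptides in the endoplasmic reticulum, was at 24.6 and 30.7 CPM in cancer cells and 21.45 and 31.4 CPM in immune cells. Psme1 and Psme2, the proteasome activator PA28, were within 1.5-fold of the immune level in both libraries.

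Most genes of interferon gamma signalling were lower in cancer cells than in the pooled immune cells. Ifng itself was found in T cells (68.7 and 75.2 CPM) and NK cells (118.7 and 111.3 CPM) and was at 0.316 and 0.227 CPM in cancer cells. Of the 6 signalling genes read, 5, Ifng among them, were at least 1.5-fold lower in cancer than in pooled immune cells in both libraries, beside 26.6% and 26.8% of all genes. Socs1, an inhibitor of the pathway, was higher. Single types differed: Ifngr2 was at 31.7 and 40.9 CPM in cancer cells, 31.8 and 28.7 in T cells and 8.57 and 7.35 in NK cells, and higher in the other types. Jak1, at 300.9 and 288 CPM, was above type 1 dendritic cells (238.1 and 126.5 CPM). Mature dendritic cells held 266.4 and 267 CPM of Jak1, and the other types more than cancer cells. The receptor gene Ifngr1 was at 30.25 and 36.3 CPM against 163.0 and 208.7 CPM. Irf1, a target that acts on class I promoters, was at 122.5 and 140.6 CPM in cancer cells and 90.5 and 102.2 CPM in immune cells. Of 12 promoter factors of class I genes, 11 of which reached 5 CPM in the ENZ library, 4 (Nfkb1, Irf2, Creb1 and the class II transactivator Ciita) were at least 1.5-fold lower in cancer cells in both libraries, a share near that of all genes (26.6% and 26.8%). At least 1.5-fold higher were 2 in the control library, Rfx5 and Nfyb, and 1 in the ENZ library, Rfx5, beside 44.7% and 42% of all genes. Rfx5, a subunit of the RFX complex that recruits Nlrc5, had the highest ratio, at 11.2 and 11.7 against 3.51 and 3.975 CPM.

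Between the libraries, all 10 members stayed within 1.5-fold in cancer cells. The summed level, mostly that of B2m, H2-K1 and H2-D1, was 0.996 times the control level in the ENZ library. At least 1.5-fold higher were 0 of 10 members and at least 1.5-fold lower 0 of 10, beside 0.654% and 1.38% of the 10398 genes tested. The median log2 ratio was 0.11 for the members and 0.03 for all genes. H2-T23 had the highest ratio, 1.24 (1.19 to 1.29), followed by Tap1 and Tapbp at 1.22 each, Nlrc5 at 1.15 and Tap2 at 1.14. Nearest to 1 were H2-D1 at 0.998 (0.9898 to 1.01), Psmb9 at 1.02 (0.989 to 1.055) and H2-K1 at 1.03 (1.02 to 1.035). B2m was at 0.960 (0.954 to 0.966) and Psmb8 at 0.951 (0.935 to 0.9675). The side of 1 turned with the processing for H2-K1 (log2 ratio from -0.027 to 0.065), H2-D1 (-0.050 to 0.018) and Psmb9 (-0.036 to 0.087). These intervals cover counting error in 1 tumor each, and the spread between tumors of a condition was not measured.

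In immune cells the differences between the libraries were wider. At least 1.5-fold higher in the ENZ library was 1 of 10 members, Nlrc5, at 72.4 against 46.75 CPM (ratio 1.55, 1.425 to 1.68), beside 6.47% of the 10392 genes tested. At least 1.5-fold lower were 0 of 10, beside 4.12% of genes. Tap2 was at 1.38 (1.252 to 1.51) and Tapbp at 1.37 (1.28 to 1.46), whereas Psmb8 was at 0.745 (0.717 to 0.775) and Psmb9 at 0.766 (0.721 to 0.813). The make-up of the immune cells differed between the libraries, with fewer neutrophils and more T cells in the ENZ library, so each type was read alone. Nlrc5 was higher in T cells (1.54, 1.33 to 1.77), neutrophils (1.48, 1.12 to 1.94), macrophages (1.485, 1.23 to 1.79) and monocytes (1.265, 1.04 to 1.54) and at 1.005 (0.699 to 1.43) in NK cells. Psmb8 was lower in monocytes (0.636, 0.589 to 0.687), macrophages (0.702, 0.649 to 0.759) and T cells (0.716, 0.659 to 0.7775) and higher in type 1 dendritic cells (1.16, 1.03 to 1.31). Tapbp had a ratio above 1 in all 10 classes, from 1.06 in NK cells to 1.915 in mature dendritic cells, and its interval lay above 1 in 6 of them. Tap2 likewise had a ratio above 1 in all 10 classes and an interval above 1 in 6. B2m and H2-D1 had ratios below 1 in all 10 classes, with intervals below 1 in 8 and 7 of them. B cells were too few to place, with 20 and 5 Psmb8 UMIs.

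**Figure D4:**
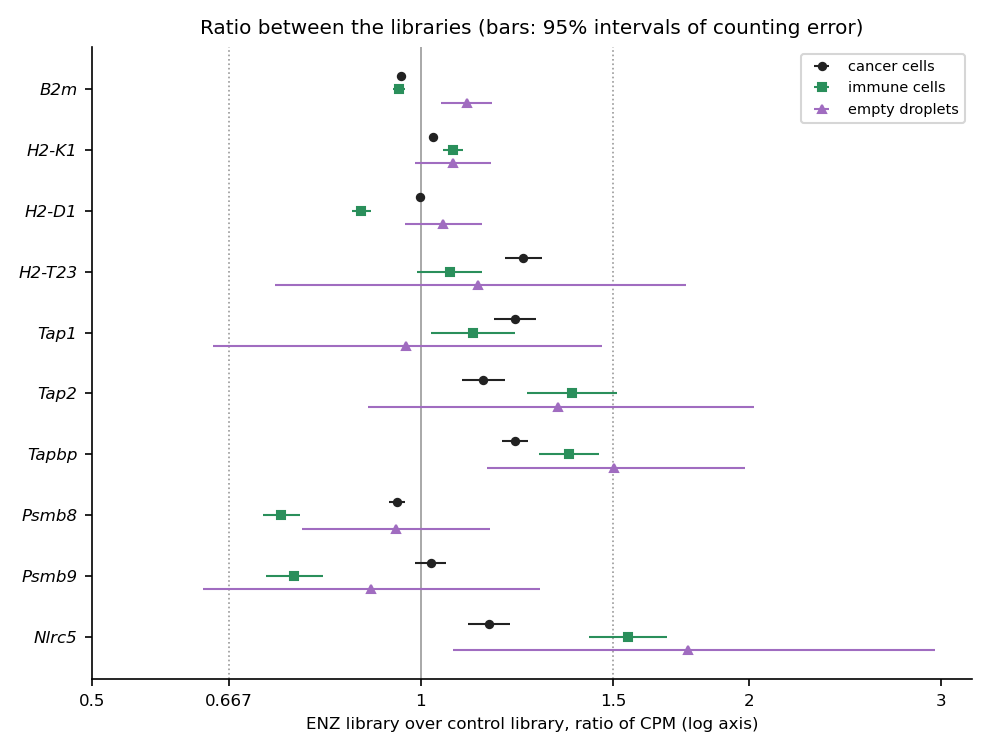
The ratio of CPM in the ENZ library to CPM in the control library is on the horizontal axis, on a log scale, for each member in cancer cells (black circles), immune cells (green squares) and empty droplets (purple triangles), with 95% intervals of counting error and dotted lines at 1.5-fold. Cancer cells lie between 0.951 and 1.24, and Nlrc5 in immune cells (1.55) lies past the upper line.

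Free RNA moved with some of these values. In empty droplets, 3 of 10 members had a ratio of ENZ to control with an interval above 1, beside 4.78% of the 11275 genes tested. Genes with many UMIs, such as B2m, pass this rule at smaller ratios, so the share of all genes is not a like measure. Nlrc5 was at 25.5 CPM (control) and 44.8 CPM (ENZ; ratio 1.76, 1.07 to 2.96), Tapbp at 88.2 and 132.7 CPM (1.505, 1.15 to 1.98) and B2m at 2363.7 and 2603.6 CPM (1.10, 1.04 to 1.16), while B2m in cancer cells was at 0.960. Its part in the ratios of cells was not tested beyond the subtraction of 5% free RNA, under which all 10 ratios in cancer cells kept their direction.

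Interferon gamma response genes were read between the libraries from a list of 9, of which 7 reached 5 CPM in cancer cells of either library. In cancer cells, 1 was at least 1.5-fold higher in the ENZ library, beside 0.654% of all genes: Gbp2, a guanylate-binding protein, at 13.8 against 7.70 CPM (1.79, 1.64 to 1.95). In empty droplets Gbp2 was at 27.2 CPM in the ENZ against 11.7 CPM in the control library (34 and 11 UMIs), and the part of free RNA in the difference was not tested. Cxcl9, a T cell chemokine below that limit, was at 0.976 CPM (control) and 4.91 CPM (ENZ) (99 and 563 UMIs). Cxcl10, a related chemokine, was at 124.7 and 86.1 CPM (0.691, 0.673 to 0.709). In empty droplets Cxcl9 was at 7.44 and 11.99 CPM (7 and 15 UMIs) and Cxcl10 at 189.1 and 106.3 CPM. The part of free RNA in these differences was not tested either. The list's median log2 ratio was 0.02. Class II genes were at 0.312 to 0.349 times the control level in cancer cells, where they served as the background of immune-cell genes. In immune cells they were at 0.440 to 0.477. All 4 were at least 1.5-fold lower in cancer and in immune cells, beside 1.38% and 4.12% of all genes.

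The 10 genes varied from cancer cell to cancer cell more than counting alone gives. In cells thinned to 5000 UMIs (54 control and 67 ENZ cells were shallower and left out), the median was 25 UMIs of the 10 genes for control and 24 for ENZ cells, with 9 at the 5th and 44 at the 95th percentile in both. The variance was 4.62 and 4.45 times the mean, where counting error alone gives a ratio near 1. Cells at 0 for all 10 genes were 1 of 3952 control and 0 of 4402 ENZ cells, which allows a share of up to 0.06815% there. Free RNA also gives UMIs of these genes, so this limits cells without a UMI, not cells that do not express the genes, and the sum does not show the loss of 1 chain. B2m, H2-K1 and H2-D1 went together across cells, with Pearson's r of 0.44 to 0.48 (control) and 0.41 to 0.46 (ENZ) (ln(1 + UMIs), cells of 1 library). Pairs with the less abundant members had r of at most 0.26.

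By likeness across cancer cells, the gene nearest to the summed members was H2-Q4 (r = 0.29 for control and 0.27 for ENZ, among 6331 genes), followed by the ribosomal protein genes Rpl23, Rpl38, Rpl26 and Rpl19, and by Itm2b, H3f3b, Cst3, Ifitm3 and Ubb, with a mean r down to 0.21. Across the 20 points of 10 classes in 2 libraries, which share their libraries and differ in depth, the members' mean level went most closely with Ly75, Cnn2, Sri, Klf8, Gm13571, Serpinb6b, Serpinb9, Psme2, Psme1 and Slc44a5 (r from 0.91 down to 0.85, among 10218 genes). Ly75 (DEC-205) is a dendritic cell receptor, and Psme1 and Psme2 are the PA28 subunits.

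Between dividing and non-dividing cancer cells, 5 of 10 members, B2m, H2-K1, H2-D1, H2-T23 and Tapbp, had intervals below 1 in both libraries, beside 19.6% of the 10392 genes tested, and 2 of 10, Tap1 and Psmb9, had intervals above 1, beside 20.4%. Genes with many UMIs, such as B2m, H2-K1 and H2-D1, pass this rule at smaller differences than genes with few. The shares of all genes are therefore not a like measure for them (H2-K1 was counted at 0.840 and 0.903). At 5000 UMIs a cell, 1138 control and 1149 ENZ cancer cells had at least 2 UMIs of the mitotic genes Mki67 and Top2a, and 2298 and 2635 had none. Before thinning the dividing cells were deeper (medians 30234 and 32307 against 17808 and 19172 UMIs). The 10 genes, most of whose UMIs were of B2m, H2-K1 and H2-D1, summed to 0.827 (0.815 to 0.8395) and 0.852 (0.840 to 0.864) times the level of non-dividing cells. H2-T23 differed most, at 31.8 against 55.3 CPM in the control (0.576, 0.485 to 0.680) and 36.4 against 71.2 CPM in the ENZ library (0.511, 0.438 to 0.594). B2m was at 0.796 and 0.810, and Tapbp at 0.706 and 0.7965. Tap1 and Psmb9 went the other way in both libraries, and their count of 2 of 10 was near the share of all genes (20.4%). Tap1 was at 1.24 (1.05 to 1.46) and 1.355 (1.17 to 1.56), and Psmb9 at 1.22 (1.08 to 1.37) and 1.15 (1.02 to 1.29). Dividing cells are a split by cells within a tumor, and depth moved with it.

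**Figure D5:**
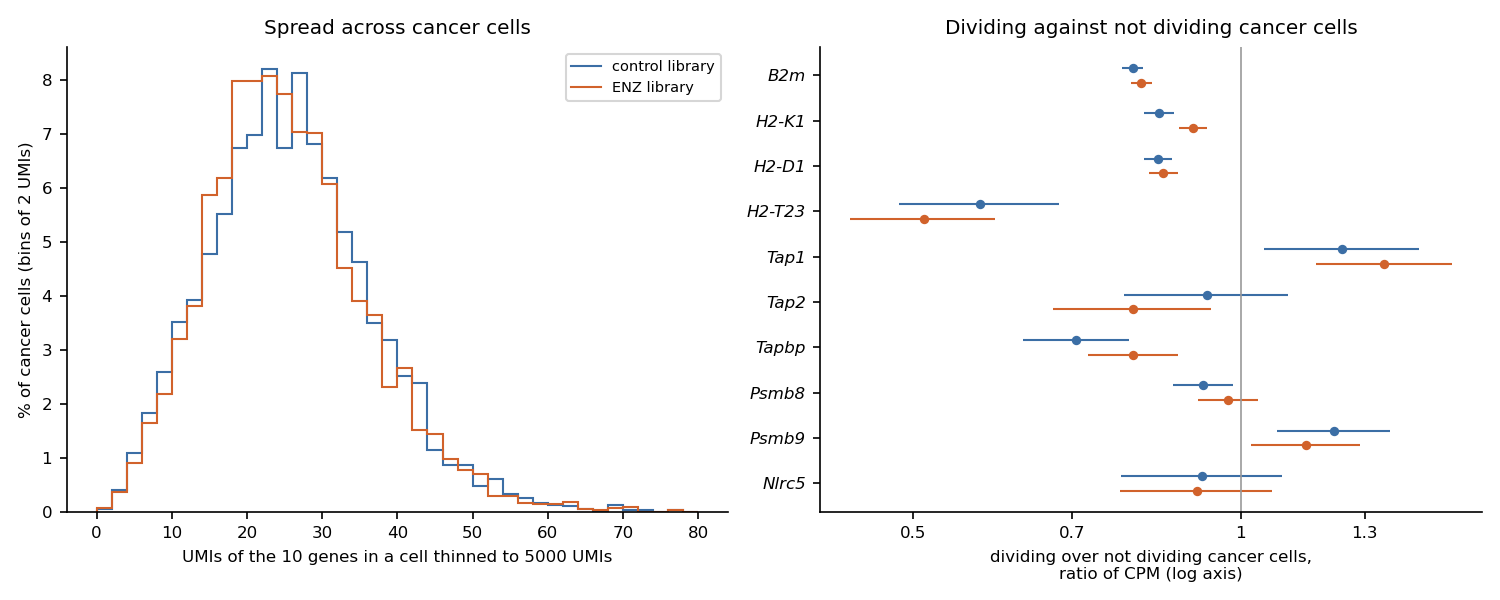
The left panel gives the percent of cancer cells by their UMIs of the 10 genes after thinning to 5000 UMIs, in bins of 2, with medians of 25 (control, blue) and 24 (ENZ, orange). The right panel gives the ratio of CPM in dividing to non-dividing cancer cells on a log axis with 95% intervals of counting error, with H2-T23 lowest (0.576 and 0.511) and Tap1 and Psmb9 above 1 in both libraries.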

How the data were processed

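The data were 2 droplet-based scRNA-seq libraries of RM-1 tumors, 1 of vehicle and 1 of ENZ treatment. The authors deposited raw UMI counts for every gene and barcode (32285 genes, 170830346 control and 162030149 ENZ UMIs), with no cell calling or normalization. The header of the deposited count files names Cell Ranger 7.2.0, while the submitters' processing notes name Cell Ranger 2.1.1 and mm10. Whether reads in introns were counted is not given in the sources used here, and the labels name a 3′ v2 chemistry, whose barcode list is shorter than the 2438568 and 2239744 barcodes listed in the files, so the chemistry is uncertain.

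From these counts, UMIs were summed per class and library, with Poisson intervals for CPM, conditional binomial intervals for ratios and Clopper-Pearson intervals for shares, all exact at 95%. Cells are not replicates, so no test and no p-value is given, and a difference was counted when it reached 1.5-fold among genes with at least 5 CPM on either side. Neighbouring classes were said to differ beyond counting error when the interval of their ratio left out 1. The gates required at least 3 UMIs of its markers for T, NK, B and type 2 dendritic cells, 5 for type 1 and mature dendritic cells, 10 for monocytes and macrophages and 20 for neutrophils. Their minimums were set after the markers' values had been seen. No doublet caller was run. The 10 members and the lists of related genes, which decide the genes named, were chosen with earlier results of these data known. A listed gene is not reported here, and counts and medians leave it out. Genes alike were the 10 with the highest Pearson's r. Positions came from GENCODE M21, in which 32158 of the identifiers were found. On simulated cancer-cell counts with 200 of 10267 genes changed, 95.5% of intervals held the true ratio, and all 100 genes changed 2-fold were counted. These counts held counting error only, as the intervals assume, and a 2-fold change lies past the 1.5-fold limit. The simulation thus checks the calculation and cannot show how the intervals fare with spread between cells or tumors. Software was numpy 2.4.6, pandas 2.3.3, scipy 1.17.1, Biopython 1.88 and matplotlib 3.10.9 under Python 3.11.15. Alternatives covered the UMI, mitochondrial and gate limits, depth, scaling and free RNA.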

Additional observations from a re-analysis of the deposited data

Results flagged for a closer look

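In empty droplets, which enter no comparison between cell classes, 3 of the 10 genes had more signal in the ENZ than in the control library beyond counting error, beside 4.78% of all genes. That share is not a like measure for B2m, whose many UMIs let a small ratio pass. The ratio of ENZ to control was 1.10 (1.04 to 1.16) for B2m, 1.505 (1.15 to 1.98) for Tapbp and 1.76 (1.07 to 2.96) for Nlrc5. In cancer cells the same ratio was 0.960 for B2m, 1.22 for Tapbp and 1.15 for Nlrc5. With 1 library per condition, no group was large enough to look for a library far from the others.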

How the results depend on the processing

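No paired analysis was possible because vehicle and ENZ were measured in 1 library each. All values here are log2 ratios. The summed members, ENZ over control in cancer cells (-0.006), moved beyond counting error to 0.009 with no Ptprc UMI, -0.025 with under 2 UMIs of 8 immune genes, -0.028 as the mean of each cell's CPM, 0.006 without mitochondrial, ribosomal and rRNA-like genes in the denominator, -0.053 under median-of-ratios scaling, -0.014 after 5% free RNA was subtracted and -0.039 at 1000 UMIs a cell. Cancer over immune cells in the control library (-0.084) moved to 0.022 with under 2 UMIs of 8 immune genes, -0.065 without the 5% deepest cells, 0.012 as the mean over cells, -0.051 with the other denominator, -0.284 under median-of-ratios scaling, 0.011 at 1000 UMIs and, in an alternative chosen after seeing the data, -0.158 with immune types weighted equally. In the ENZ library (-0.033) it moved to -0.019 with no Ptprc UMI, 0.054 with under 2 UMIs of 8 immune genes, -0.003 without the deepest cells, 0.029 as the mean over cells, -0.208 under median-of-ratios scaling, 0.024 at 1000 UMIs and -0.069 with equal weights. The sign of all 3 sums thus changed with the processing, none of these values reached 1.5-fold, and the cause was not tested.

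The count of members at least 1.5-fold apart between the libraries in cancer cells was 0 under all 13 alternatives run for it. Of 410 values of single members, 391 had the sign of the reported value, while 286 counted as the same as it and 124 as moved. H2-T23 in cancer over immune cells was negative under all 14 alternatives in both libraries (-1.21 to -0.69 in the control and -1.01 to -0.48 in the ENZ library), as were Psmb9 (-1.29 to -0.49 and -1.19 to -0.23) and Nlrc5 (-0.97 to -0.33 and -1.05 to -0.77). Psmb8 in the ENZ library ranged from -0.52 to 0.33. B cells and the 3 dendritic types held the fewest summed UMIs, which limits their values. The spread between tumors was not measured.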
